A study of Mus musculus with 12 samples.

Results

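The genes described here are 53 genes whose products fold, inspect and move proteins in the early secretory pathway, in cumulus cells, the somatic cells that surround the mouse oocyte. They were listed by name for their known roles, with earlier results of these data in view, and fall into 6 stress sensors and their transcription factors, 12 folding enzymes and chaperones, 9 genes of ER-associated degradation, 8 genes of protein translocation and 18 genes of vesicle coats and cargo receptors. A probe set of its own measured 51 of the 53, of 19938 genes with such a probe set on the array. Sec61g shares its probe set with other symbols and Kdelr2 is not listed in the annotation used, so neither was analysed here.

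Cumulus-oocyte complexes from 129SV females aged 21 to 26 days, recovered 44 h after 5 IU of equine chorionic gonadotropin (eCG), were cultured for 8 h, with 20 complexes in each drop of 50 µl. The FSH/EGF group received follicle-stimulating hormone at 50 mIU/ml and epidermal growth factor at 10 ng/ml, together with 0.125% (v/v) of control medium from 293H cells. The GDF9 group received the oocyte-secreted growth factor GDF9 at 20 ng/ml, and the labels name no control medium for it. The control group received only that 0.125% (v/v) of 293H control medium. Complexes of all 3 groups had been collected with 1 µM cilostamide, a phosphodiesterase inhibitor, and oocytes were present during culture and removed after it. There were 4 arrays per group, each of RNA pooled from 2 of the 8 biological replicates of its condition, so that the p-values measure the spread between such pools. All values below are log2 signals as deposited and differences between them, where 1 unit is a 2-fold change.

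Proteins meant for the cell surface or the extracellular matrix enter the endoplasmic reticulum (ER) through the Sec61 channel, fold there with the help of chaperones and disulfide enzymes, and leave in vesicles with a COPII coat. COPI-coated vesicles bring escaped ER proteins back from the Golgi, and proteins that do not fold are drawn back into the cytosol and degraded. When unfolded proteins build up, the sensors IRE1, PERK and ATF6 start the unfolded protein response, in which XBP1 and the cleaved ATF6 raise the transcription of folding, degradation and transport genes. Cumulus cells that receive FSH and EGF-like signals assemble a hyaluronan-rich matrix and expand, and the proteins of that matrix pass along this route.

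ATF6 and XBP1 are known to bind the ER stress response element, which reads CCAAT, 9 bases of any kind and CCACG, and the core of another element of this response reads GACGTGG. Both were searched on both strands from 250 bases before to 50 bases after the start of each gene, in the RefSeq promoter table (GRCm38.p6), where 43 of the members had an entry. The ER stress response element stood in 6 of these 43 promoters (14%), those of Calr, Canx, Pdia6, Ero1lb, Syvn1 and Derl3, and in 37 of 27025 promoters of all genes (0.137%). The core GACGTGG stood in 13 of 43 (30.2%) against 738 of 27025 (2.73%): Pdia5, Pdia6, Edem3, Sec63, Ssr1, Sec13, Sec23a, Sec24d, Sar1a, Copb1, Copb2, Copg1 and Kdelr3. The cyclic AMP response element TGACGTCA stood in 1 of 43 (2.33%), that of Cope, against 549 of 27025 (2.03%). No matches of different motifs overlapped in the members. A match describes these letters in this window and is not a measured binding site.

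The promoters below are the 250 bases before the start, 5′ to 3′ in the direction of transcription. The first 4 carry the ER stress response element and belong to the members with it that rose the most, and Derl3 is shown because it carries the element and fell. Kdelr3 and Ssr1 had the largest rises among members with the GACGTGG core. Derl3, Kdelr3 and Ssr1 were added after their values were seen. Capitals mark the 2 fixed parts of the ER stress response element (CCAAT and CCACG, or CGTGG and ATTGG where it lies on the other strand), and in Kdelr3 and Ssr1 the core, which reads CCACGTC there because it lies on the other strand.
Syvn1, chr19:6046326-6046575, plus strand: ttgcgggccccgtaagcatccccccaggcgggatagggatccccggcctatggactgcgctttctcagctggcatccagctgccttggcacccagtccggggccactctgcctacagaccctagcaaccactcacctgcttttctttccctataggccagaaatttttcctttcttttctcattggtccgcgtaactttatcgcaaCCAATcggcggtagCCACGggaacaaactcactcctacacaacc
Ero1lb, chr13:12565633-12565882, plus strand: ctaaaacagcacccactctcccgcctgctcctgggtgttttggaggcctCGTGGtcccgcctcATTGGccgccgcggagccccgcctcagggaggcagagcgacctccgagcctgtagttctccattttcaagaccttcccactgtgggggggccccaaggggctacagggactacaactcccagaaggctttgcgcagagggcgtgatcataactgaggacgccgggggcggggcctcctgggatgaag
Pdia6, chr12:17266339-17266588, plus strand: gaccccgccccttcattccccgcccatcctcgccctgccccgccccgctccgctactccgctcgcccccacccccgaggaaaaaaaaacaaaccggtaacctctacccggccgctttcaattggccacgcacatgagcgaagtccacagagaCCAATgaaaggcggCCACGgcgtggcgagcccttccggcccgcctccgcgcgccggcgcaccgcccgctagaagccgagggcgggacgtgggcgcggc
Calr, chr8:84846932-84847181, minus strand: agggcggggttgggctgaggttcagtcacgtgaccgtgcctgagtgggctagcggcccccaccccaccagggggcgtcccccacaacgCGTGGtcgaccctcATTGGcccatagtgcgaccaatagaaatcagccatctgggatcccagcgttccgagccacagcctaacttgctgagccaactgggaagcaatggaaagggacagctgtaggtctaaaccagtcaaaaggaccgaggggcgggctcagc
Derl3, chr10:75893148-75893397, plus strand: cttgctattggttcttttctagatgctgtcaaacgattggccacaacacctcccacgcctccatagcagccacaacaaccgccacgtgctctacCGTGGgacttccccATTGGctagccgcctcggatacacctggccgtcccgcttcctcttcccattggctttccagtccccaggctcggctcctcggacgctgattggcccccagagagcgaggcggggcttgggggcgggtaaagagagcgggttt
Kdelr3, chr15:79516158-79516407, plus strand: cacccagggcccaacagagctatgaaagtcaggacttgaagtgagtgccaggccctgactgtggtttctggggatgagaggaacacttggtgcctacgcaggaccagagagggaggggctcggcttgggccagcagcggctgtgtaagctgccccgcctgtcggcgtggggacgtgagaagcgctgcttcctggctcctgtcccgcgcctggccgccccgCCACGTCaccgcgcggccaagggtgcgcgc
Ssr1, chr13:37994209-37994458, minus strand: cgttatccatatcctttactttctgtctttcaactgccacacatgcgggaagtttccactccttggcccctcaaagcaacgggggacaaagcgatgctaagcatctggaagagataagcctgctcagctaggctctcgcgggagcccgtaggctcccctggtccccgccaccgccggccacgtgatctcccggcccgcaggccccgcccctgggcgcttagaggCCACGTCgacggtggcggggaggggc

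Under FSH/EGF, 43 of the 51 members were higher than in control at an adjusted p under 0.05 (limma over all 12 arrays, Benjamini-Hochberg over all 35399 rows), 2 were lower and 6 did not pass. Among all 19938 genes, 36.8% passed, 21.9% higher and 14.9% lower, and among the 13588 genes above the dimmest 40% of rows, where all 51 members lie, 30.7% were higher and 17.5% lower. The median difference of the members was 0.55, beside −0.07 for all genes and 0.01 for the genes above the dimmest rows. The latter start at a mean signal of 5.07, and the dimmest member, Ero1lb, has 5.94. They are thus not matched to the members in brightness. Most changes were moderate: 6 of the 51 (Creb3l1, Ern1, Edem1, Sec23b and Kdelr3 upwards, Derl3 downwards) reached 2-fold, where 7.37% of all genes did. The FSH/EGF and control arrays did not overlap for 46 members, beside 41.9% of all genes, and 49 differences were positive, beside 39.8% of all genes and 51% of those above the dimmest rows. Array by array, the median of the members relative to the control mean was 0.62, 0.58, 0.59 and 0.51 on the FSH/EGF arrays, 0.19, −0.03, 0.09 and 0.14 on the GDF9 arrays, and −0.15, 0.08, −0.02 and 0.11 on the control arrays. Every FSH/EGF array thus lay above every array of the other groups in this median.

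**Figure D1:**
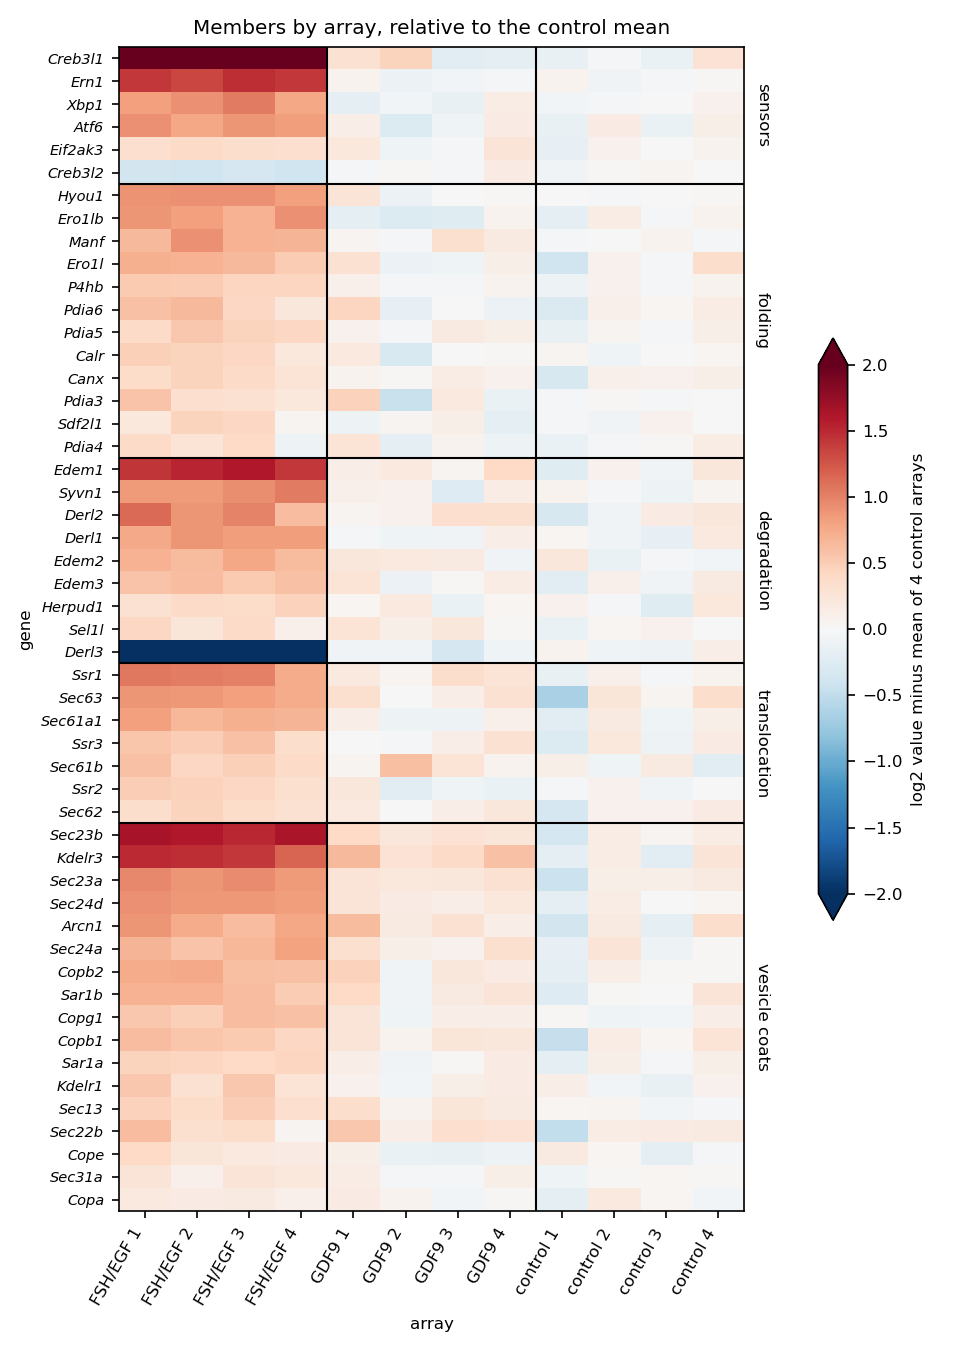
Each row is a member, grouped by role, and each column an array, with the FSH/EGF arrays on the left, then GDF9 and control. Colour gives the log2 signal minus the gene's control mean and stops at 2 in either direction, which Creb3l1 and Derl3 exceed; rows are higher on all 4 FSH/EGF arrays for most members, and Derl3 and Creb3l2 are lower.

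Several facts of the arrays stand beside these results. The granulosa and cumulus markers were bright, and under FSH/EGF 10 of 11 of them were lower than in control, among them the FSH receptor gene Fshr, so that their summed linear signal was 4599 to 5642 on FSH/EGF arrays, 11556 to 13037 on GDF9 arrays and 11253 to 11534 on control arrays. The sums over 21 oocyte markers were 669 to 836 on FSH/EGF arrays, 655 to 746 on GDF9 arrays and 727 to 1435 on control arrays, with 2 of 21 lower under FSH/EGF. Control array 4 had an oocyte marker median of 5.90, against 4.78 to 4.94 on the other control arrays, and FSH/EGF array 3 had 5.00, the highest of its group. Sums over 7 theca and stroma markers (3 lower) were 373 to 395 under FSH/EGF, 632 to 980 under GDF9 and 720 to 884 in control. Acta2 carried most of that gap, with 6.61, 6.24, 6.29 and 6.33 under FSH/EGF, 9.38, 8.58, 9.14 and 8.20 under GDF9 and 8.87, 8.54, 8.73 and 8.71 in control, and the other 6 markers differed from control by −0.11 to −0.40. Both red blood cell markers were lower, with sums of 75 to 76 under FSH/EGF, 84 to 107 under GDF9 and 85 to 102 in control. Of the 6 surface epithelium markers 2 were lower, with sums of 183 to 207 under FSH/EGF, 188 to 230 under GDF9 and 206 to 261 in control. For 8 endothelial markers (1 higher) the sums were 266 to 276 under FSH/EGF, 262 to 306 under GDF9 and 266 to 317 in control, and for 6 leukocyte markers (1 higher) 195 to 213 under FSH/EGF, 178 to 211 under GDF9 and 193 to 223 in control. After renewed quantile normalization, and likewise with equal array medians, 0 surface epithelium markers, 1 red blood cell marker and 2 theca and stroma markers were lower. No marker has a true 0 on this scale, and the part of these cell types in the results was not tested. Control array 1 had the lowest weight when limma weighted arrays by their residual spread, 0.269 beside 0.485 to 2.04 on the others, and it stood below the other 3 control arrays for Canx, Sec62, Sec22b, Sec23a and Sec31a by more than Dixon's 95% limit for outliers. Without control arrays 1 and 4, 41 members passed against control, and without FSH/EGF array 3 as well, 35. Of all rows, 24.4% and 20.2% were called in these settings, beside 29% with all arrays. In RNA of a whole cell population, fewer cells of a type and less RNA per cell cannot be told apart.

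All 6 sensors and transcription factors passed against control, 5 higher and Creb3l2 lower. Creb3l1 codes for a membrane-bound transcription factor, also called OASIS, which is cut free in the Golgi and is known in mouse bone for its part in collagen secretion. Its signal was 8.76, 8.64, 8.83 and 8.82 on FSH/EGF arrays 1 to 4, 5.98, 6.11, 5.47 and 5.50 on GDF9 arrays and 5.54, 5.66, 5.55 and 5.96 on control arrays. The FSH/EGF arrays stood far above both other groups, which overlapped with each other, and the difference from control was 3.09 ± 0.15 (SE), 8.49-fold (limma adjusted p = 1.11e-08). The related Creb3l2 went the other way, with 10.03, 9.99, 10.07 and 10.00 under FSH/EGF, 10.36, 10.42, 10.36 and 10.57 under GDF9 and 10.33, 10.42, 10.45 and 10.39 in control. That fall was small but the groups did not overlap, with a difference of −0.38 ± 0.07 (SE) (limma adjusted p = 0.000843).

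Ern1 codes for IRE1, the kinase and endonuclease that splices the Xbp1 messenger RNA. Ern1 had 9.96, 9.89, 10.02 and 9.97 under FSH/EGF, 8.62, 8.43, 8.50 and 8.51 under GDF9 and 8.62, 8.48, 8.52 and 8.57 in control, a rise of 1.41 ± 0.07 (SE) or 2.66-fold (limma adjusted p = 7.88e-09), with close replicates and no overlap. Its target Xbp1 had 9.35, 9.45, 9.58 and 9.31 under FSH/EGF, 8.35, 8.48, 8.38 and 8.68 under GDF9 and 8.48, 8.51, 8.52 and 8.62 in control. The rise was 0.89 ± 0.09 (SE) (limma adjusted p = 6.49e-06), or 0.66 after renewed quantile normalization. An array signal of this kind does not tell spliced from unspliced Xbp1. Atf6, the sensor that is itself cut into a transcription factor, had 8.66, 8.51, 8.62 and 8.57 under FSH/EGF, 7.88, 7.47, 7.66 and 7.90 under GDF9 and 7.59, 7.91, 7.61 and 7.86 in control, a rise of 0.85 ± 0.11 (SE) (limma adjusted p = 6.45e-05). Eif2ak3, which codes for PERK, the kinase that slows translation, had 8.12, 8.17, 8.14 and 8.13 under FSH/EGF, 8.00, 7.70, 7.76 and 8.05 under GDF9 and 7.63, 7.87, 7.79 and 7.86 in control. Its rise of 0.35 ± 0.09 (SE) was the smallest of the 5 (limma adjusted p = 0.0103), and it was 1 of 9 calls lost when the deposited values were quantile-normalized again, where it was 0.12 (limma adjusted p = 0.189). It was also lost without control arrays 1 and 4 (0.31, limma adjusted p = 0.058).

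**Figure D2:**
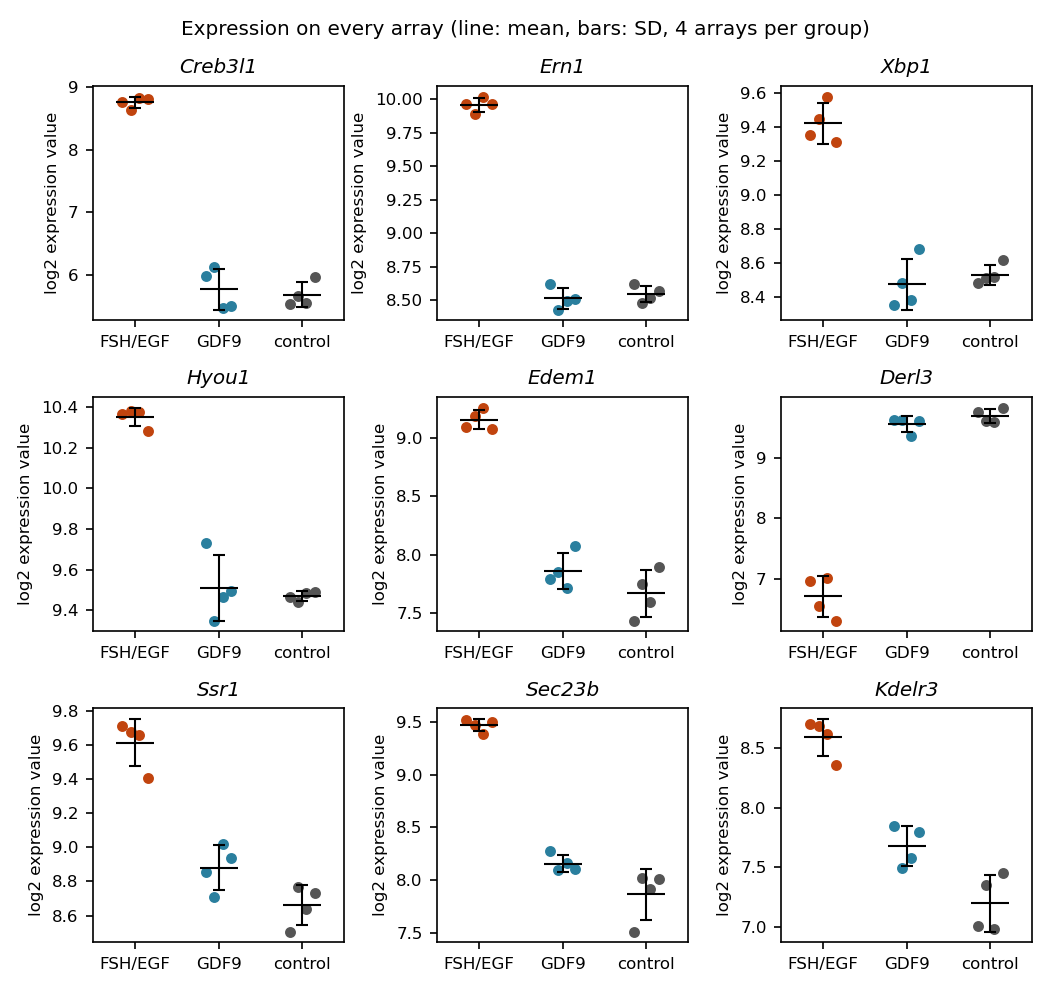
Log2 signal on every array for Creb3l1, Ern1, Xbp1, Hyou1, Edem1, Derl3, Ssr1, Sec23b and Kdelr3, with FSH/EGF on the left of each panel, then GDF9 and control. Points are arrays, the long line is the group mean and the bars its SD (n = 4 arrays); each vertical axis has its own range, and the FSH/EGF arrays lie above the other groups in these genes except Derl3, where they lie below.

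Of the 12 folding genes, 9 were higher under FSH/EGF, none was lower and 3 did not pass, with a median difference of 0.46. Hyou1, an ER chaperone of the Hsp70 family, had 10.36, 10.38, 10.38 and 10.28 under FSH/EGF, 9.73, 9.35, 9.46 and 9.50 under GDF9 and 9.47, 9.44, 9.49 and 9.49 in control, a rise of 0.88 ± 0.08 (SE) or 1.84-fold (limma adjusted p = 2.8e-06). Ero1l and Ero1lb, now named Ero1a and Ero1b, code for the oxidases that recharge protein disulfide isomerases. Ero1lb had 6.61, 6.54, 6.41 and 6.64 under FSH/EGF, 5.52, 5.44, 5.47 and 5.78 under GDF9 and 5.52, 5.86, 5.70 and 5.79 in control, a rise of 0.83 ± 0.10 (SE) (limma adjusted p = 3.32e-05). For Ero1l the signals were 8.22, 8.20, 8.15 and 8.01 under FSH/EGF, 7.80, 7.38, 7.42 and 7.62 under GDF9 and 7.11, 7.59, 7.46 and 7.85 in control, with a wider spread in control and a rise of 0.65 ± 0.14 (SE) (limma adjusted p = 0.00417), or 0.43 after renewed quantile normalization. In both oxidase genes the FSH/EGF arrays lay above all others. Manf, a small ER-resident protein that is also secreted, had 8.25, 8.50, 8.29 and 8.27 under FSH/EGF, 7.65, 7.56, 7.91 and 7.76 under GDF9 and 7.56, 7.58, 7.67 and 7.56 in control, a rise of 0.74 ± 0.09 (SE) (limma adjusted p = 3.15e-05).

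The remaining folding genes that passed rose by 0.37 to 0.47. They were the disulfide isomerases P4hb (0.47), Pdia6 (0.47) and Pdia5 (0.45, or 0.23 after renewed quantile normalization), and calreticulin (Calr, 0.39) and calnexin (Canx, 0.37), the lectin chaperones that hold glycoproteins while they fold. Pdia6 had a limma adjusted p of 0.0283 and lost its call when control array 1 or 3 or FSH/EGF array 1, 2 or 3 was left out, and after renewed quantile normalization (0.37, limma adjusted p = 0.0598). The 3 that did not pass were Pdia3 at 0.35 (95% interval 0.01 to 0.69), Sdf2l1 at 0.28 (0.07 to 0.50) and Pdia4 at 0.24 (−0.03 to 0.52), of which renewed quantile normalization left 0.079 for Sdf2l1 and 0.011 for Pdia4. The brightest Pdia4 probe set, used here, and a dimmer one differ in call: the dimmer gave 0.71 ± 0.14 (SE, limma adjusted p = 0.00215).

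Among the 9 genes of ER-associated degradation, 8 were higher under FSH/EGF, and Derl3 was lower. Edem1, a lectin-like protein that picks misfolded glycoproteins for disposal, had 9.10, 9.20, 9.26 and 9.08 under FSH/EGF, 7.79, 7.85, 7.72 and 8.07 under GDF9 and 7.43, 7.74, 7.60 and 7.89 in control. Its rise of 1.49 ± 0.11 (SE), or 2.82-fold (limma adjusted p = 3.63e-07), was the largest upward difference of this group. Syvn1, which codes for the ubiquitin ligase HRD1, had 8.83, 8.84, 8.91 and 9.02 under FSH/EGF, 8.08, 8.07, 7.73 and 8.13 under GDF9 and 8.05, 7.97, 7.89 and 8.03 in control, a rise of 0.92 ± 0.09 (SE) (limma adjusted p = 7.91e-06). The partner of that ligase, Sel1l, rose by 0.28 (limma adjusted p = 0.0299) and lost its call without control array 1, control array 4, FSH/EGF array 1 or FSH/EGF array 3. After renewed quantile normalization Sel1l was nearly level, at 0.051 (limma adjusted p = 0.715). Herpud1, another partner, rose by 0.38, a call that renewed quantile normalization removed (0.16, limma adjusted p = 0.305). Edem2 rose by 0.68 and Edem3 by 0.57, or by 0.46 and 0.35 after that normalization.

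The derlins are membrane proteins of the channel through which misfolded proteins leave the ER, and they diverged. Derl2 had 8.13, 7.89, 7.99 and 7.62 under FSH/EGF, 7.05, 7.08, 7.33 and 7.32 under GDF9 and 6.68, 6.92, 7.17 and 7.22 in control, a rise of 0.91 ± 0.14 (SE) (limma adjusted p = 0.000255). Derl1 rose by 0.82 ± 0.08 (SE) (limma adjusted p = 1.04e-05). Derl3 had 6.98, 6.57, 7.02 and 6.32 under FSH/EGF, 9.62, 9.61, 9.35 and 9.60 under GDF9 and 9.75, 9.61, 9.58 and 9.82 in control. No FSH/EGF array came within 2 log2 units of an array of either other group, and the difference from control was −2.97 ± 0.14 (SE), a level 0.128 times that of control (limma adjusted p = 1.17e-08). Its promoter, printed above, holds the ER stress response element on the other strand, 156 to 138 bases before the start. The part of that element in the change was not tested.

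The 7 measured translocation genes were all higher under FSH/EGF, by 0.37 to 0.96. Ssr1 codes for a subunit of the translocon-associated TRAP complex, and had 9.71, 9.68, 9.66 and 9.41 under FSH/EGF, 8.85, 8.71, 9.02 and 8.94 under GDF9 and 8.50, 8.77, 8.64 and 8.73 in control, a rise of 0.96 ± 0.09 (SE) (limma adjusted p = 7.04e-06). The pore-forming subunit gene Sec61a1 had 10.80, 10.63, 10.69 and 10.65 under FSH/EGF, 10.10, 9.87, 9.87 and 10.08 under GDF9 and 9.75, 10.16, 9.89 and 10.10 in control, a rise of 0.72 ± 0.10 (SE) (limma adjusted p = 0.000124). In each of these genes the lowest FSH/EGF array lay above the highest array of the other groups. Sec63, which helps pull chains through the channel, had 8.65, 8.63, 8.58 and 8.51 under FSH/EGF, 8.08, 7.75, 7.90 and 8.08 under GDF9 and 7.12, 8.00, 7.82 and 8.12 in control. Control array 1 was low, and the rise was 0.83 ± 0.18 (SE) with all arrays (limma adjusted p = 0.00333) and 0.61 without that array. Ssr3, another TRAP subunit gene, had 10.71, 10.65, 10.74 and 10.50 under FSH/EGF, 10.15, 10.11, 10.29 and 10.45 under GDF9 and 9.87, 10.37, 10.05 and 10.31 in control, a rise of 0.50 ± 0.12 (SE) (limma adjusted p = 0.00643). Sec61b rose by 0.46, and its dimmer probe sets gave 0.63 each, but the call was lost after renewed quantile normalization (0.24, limma adjusted p = 0.297) and without control arrays 1 and 4 (0.42, limma adjusted p = 0.0701). Ssr2 rose by 0.42. Sec62 rose by 0.37 and lost its call without FSH/EGF array 2 and after renewed quantile normalization (0.15, limma adjusted p = 0.236). Calr, Canx, Ssr2, Ssr3 and Sec62 did not pass once FSH/EGF array 3 and control arrays 1 and 4 were all left out.

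Of the 17 vesicle genes measured, 14 were higher, none was lower and 3 did not pass, with a median of 0.55. SEC23 and SEC24 proteins form the inner COPII coat, SEC13 and SEC31 the outer one, and SAR1 is the GTPase that starts it. Sec23b had 9.52, 9.47, 9.38 and 9.50 under FSH/EGF, 8.27, 8.10, 8.16 and 8.10 under GDF9 and 7.51, 8.02, 7.92 and 8.02 in control, a rise of 1.60 ± 0.10 (SE) or 3.03-fold (limma adjusted p = 1.72e-07). Its paralogue Sec23a had 9.17, 9.09, 9.15 and 9.06 under FSH/EGF, 8.46, 8.42, 8.43 and 8.51 under GDF9 and 7.78, 8.33, 8.33 and 8.39 in control, a rise of 0.91 ± 0.12 (SE) (limma adjusted p = 6.41e-05). In both, the FSH/EGF arrays were highest, the GDF9 arrays lay just above the control arrays, and control array 1 was lowest. Sec24d, a cargo-binding subunit, had 9.48, 9.44, 9.43 and 9.40 under FSH/EGF, 8.83, 8.72, 8.70 and 8.77 under GDF9 and 8.38, 8.71, 8.57 and 8.60 in control, a rise of 0.87 ± 0.07 (SE) (limma adjusted p = 1.93e-06).

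Kdelr3 codes for a receptor that returns ER proteins ending in a KDEL signal from the Golgi. It had 8.70, 8.68, 8.62 and 8.36 under FSH/EGF, 7.85, 7.49, 7.58 and 7.79 under GDF9 and 7.01, 7.35, 6.98 and 7.46 in control, and the 3 groups formed 3 steps with no overlap. Its rise over control was 1.39 ± 0.13 (SE) or 2.62-fold (limma adjusted p = 3.64e-06). Smaller rises were measured for Sec24a (0.68), Sar1b (0.63), Sar1a (0.43), Sec13 (0.41) and Kdelr1 (0.41). After renewed quantile normalization these were 0.46 for Sec24a, 0.41 for Sar1b, 0.23 for Sar1a and 0.20 for Sec13, which kept their calls. Sec13 did so only narrowly (limma adjusted p = 0.0494), and Kdelr1, at 0.20, lost its call (limma adjusted p = 0.123). The COPI coat genes Arcn1 (0.75), Copb2 (0.67), Copg1 (0.55) and Copb1 (0.53) also rose, and with the same renewed normalization Copg1 was 0.33 and Copb1 lost its call at 0.29 (limma adjusted p = 0.075). Sec31a, at 0.21 (limma adjusted p = 0.042), was the weakest call: it was lost when any single one of control arrays 1 to 4 or FSH/EGF arrays 1, 3 and 4 was left out, and its difference was −0.02 after renewed quantile normalization. Copa at 0.16 (95% interval −0.02 to 0.35), Cope at 0.25 (0.05 to 0.46) and the SNARE gene Sec22b at 0.34 (−0.01 to 0.69) did not pass. Without control array 1, Copa was 0.10 and Sec22b 0.18, and after renewed quantile normalization Sec22b was 0.12 and Cope 0.022.

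**Figure D3:**
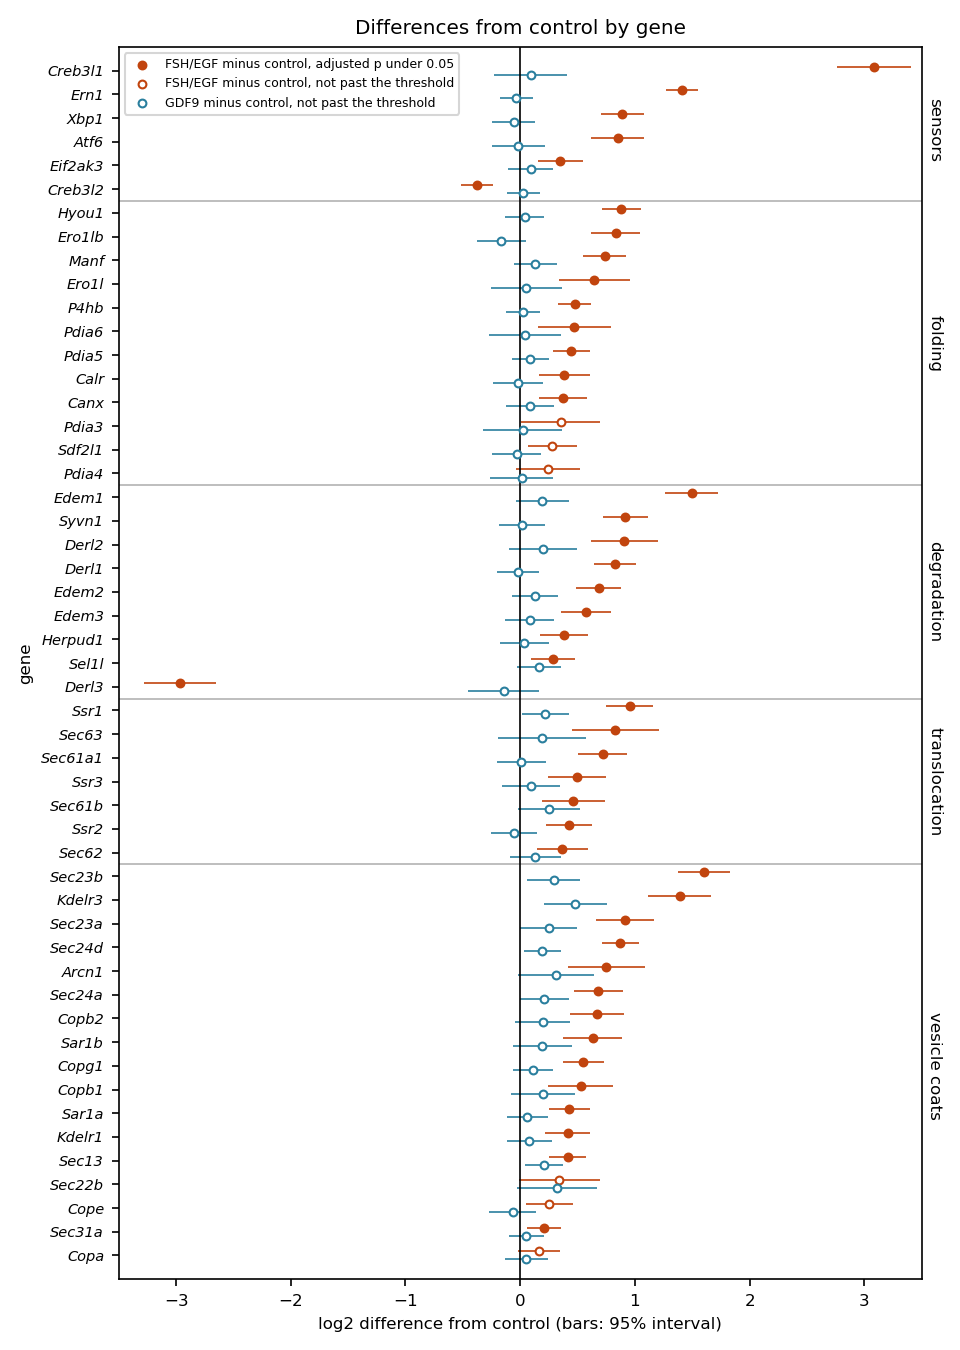
Log2 difference from control for each of the 51 measured members, with its 95% interval, grouped by role; FSH/EGF in red, GDF9 in blue, and filled points past an adjusted p of 0.05. The FSH/EGF points run from −2.97 for Derl3 to 3.09 for Creb3l1 with 43 filled above 0 and 2 below, and no GDF9 point is filled.

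Paralogues were set against each other within arrays, as the log2 difference between their signals on FSH/EGF arrays minus that on control arrays. The 12 pairs were chosen after the values were seen, and the 3 derlins and the 3 Edem genes each enter several of them, so that the values are a description with no test. Relative to its paralogue, and as FSH/EGF minus control, Creb3l1 gained 3.46 ± 0.11 over Creb3l2 (SE). Derl1 gained 3.79 ± 0.19 and Derl2 3.88 ± 0.16 over Derl3. Edem1 gained 0.81 ± 0.17 over Edem2 and 0.92 ± 0.06 over Edem3. In the vesicle genes, Sec23b gained 0.69 ± 0.05 over Sec23a, and Kdelr3 gained 0.98 ± 0.14 over Kdelr1. In these 7 pairs no FSH/EGF array overlapped a control array in this difference. The arrays overlapped in the other 5 pairs, where the change was 0.08 ± 0.19 for Derl2 minus Derl1, 0.11 ± 0.17 for Edem2 minus Edem3 and 0.19 ± 0.13 for Ero1lb minus Ero1l. It was 0.19 ± 0.07 for Sec24d minus Sec24a and 0.20 ± 0.07 for Sar1b minus Sar1a.

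**Figure D4:**
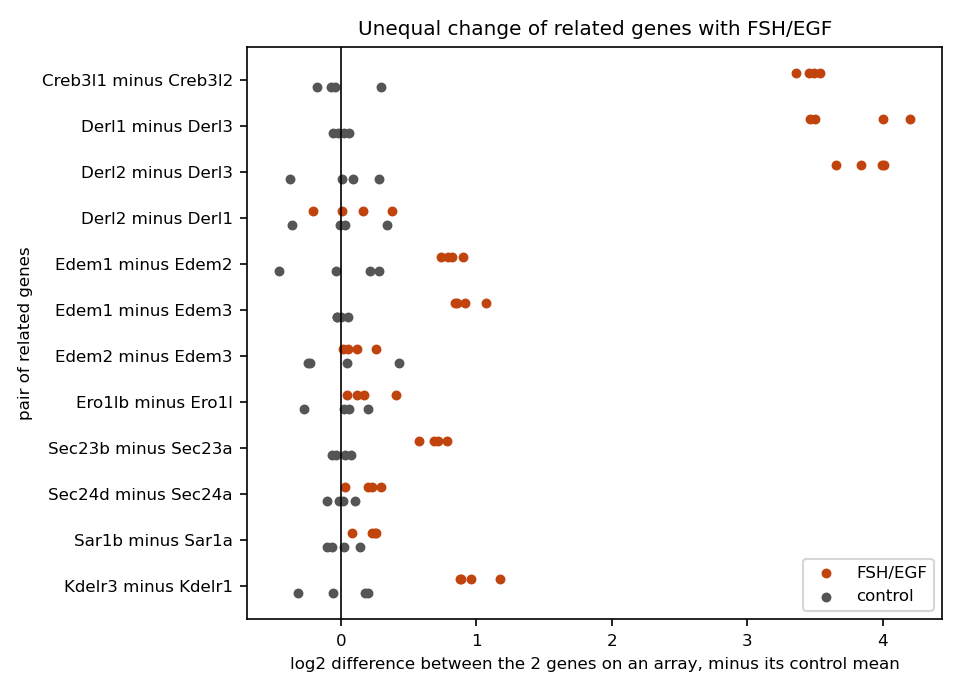
Within-array log2 difference between the signals of 2 related genes, minus the mean of that difference on the control arrays, for 12 pairs. Each point is an array, with FSH/EGF in red above control in grey (n = 4 arrays each); the groups are apart in 7 pairs, whose mean changes run from 0.69 for Sec23b minus Sec23a to 3.88 for Derl2 minus Derl3, and overlap in the other 5.

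A further 77 measured genes of the same route, listed by role with earlier results of these data in view, stood beside the members. Of these, 56 were higher under FSH/EGF than in control, 4 were lower and 17 did not pass, with a median of 0.52. Among all genes 21.9% were higher and 14.9% lower. Among the sensors and stress effectors, 10 of 15 rose and 2 fell. Dnajb9, a co-chaperone of the ER Hsp70 protein BiP, rose by 1.61 ± 0.21 (SE, limma adjusted p = 7.33e-05), and Creb3, a relative of Creb3l1, by 0.89 ± 0.10 (2.01e-05). Sil1, the nucleotide exchange factor of BiP, fell by 0.94 ± 0.07 (6.95e-07). The genes of BiP itself (Hspa5, 0.52 ± 0.12, limma adjusted p = 0.00467) and of GRP94 (Hsp90b1, 0.29 ± 0.12, 0.0799) are given because they are the main ER chaperones and were picked after their values were seen.

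In glycosylation, 8 of 14 rose and 1 fell (5 and 1 after renewed quantile normalization), and Ostc, Magt1 and Tusc3, which belong to the oligosaccharyltransferase, rose by 0.90, 0.67 and 0.66. In degradation 6 of 9 rose, with Selenos at 1.16 ± 0.12 (SE, limma adjusted p = 8.7e-06), Ube2j1 at 0.94 and Ubxn4 at 0.90. Of the translocation genes 12 of 15 rose, led by the signal peptidase subunit Sec11c at 1.47 ± 0.11 (6.76e-07), the channel partner Tram1 at 1.12 ± 0.10 (2.91e-06) and the signal peptidase subunit Spcs3 at 0.89. In vesicle traffic 20 of 24 rose and 1 fell (12 and 2 after renewed quantile normalization), with the SNARE gene Bet1 at 0.91, the COPI regulator Arfgap3 at 0.89 and the SAR1 exchange factor Preb at 0.80. The 4 that fell over all these roles were Sil1, Mbtps1 (−0.48), which codes for the Golgi protease that cuts ATF6, Rpn1 (−0.26) and Copg2 (−0.43). With array medians made equal, Rpn1 (limma adjusted p = 0.183) and Copg2 (0.0731) did not pass. After renewed quantile normalization 44 of the 77 were higher and 6 lower, and without control arrays 1 and 4, 50 were higher and 3 lower. In these settings 25.7% and 24.4% of all rows were called in either direction.

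With GDF9, 0 of the 51 members passed against control in limma, and 0% of all genes did, so this count does not set the members apart. The smallest limma adjusted p of a member was 0.971. Oocytes were present during culture in all 3 groups, and the part of the GDF9 that they secrete was not tested. Without adjustment, p was under 0.05 for 5 of 51 members (Kdelr3, Sec13, Sec23b, Sec24d and Ssr1), beside 4.95% of all genes and 5.87% of the genes above the dimmest rows. The arrays of the groups did not overlap for 4 members, Sec13, Sec23a, Sec23b and Kdelr3, beside 2.32% of all genes, dim ones included. The gaps were narrow. In this order, the lowest GDF9 array stood at 8.739, 8.42, 8.10 and 7.49, and the highest control array at 8.735, 8.39, 8.02 and 7.46. Kdelr3 differed by 0.48 ± 0.13 (SE, 95% interval 0.20 to 0.76), Sec23b by 0.29 ± 0.10 and Sec13 by 0.21 ± 0.07, each with a limma adjusted p of 0.971. Without control array 1, which was low for Sec23b, that gene differed by 0.17. Sec13 had 9.03, 8.74, 8.91 and 8.85 under GDF9 and 8.71, 8.73, 8.62 and 8.64 in control. The member median was 0.08 (all genes −0.02), and 41 of 51 differences were positive, beside 43.7% of all genes and 52.1% of those above the dimmest rows. Fewer were positive after renewed quantile normalization (31 of 51), without control array 1 (33, with a median of 0.04), without GDF9 array 1 (34) and with array weights (35). Of the 17 vesicle genes 16 were positive, and 14 without control array 1, with a median of 0.19 over all arrays, of which none passed.

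Set directly against GDF9, FSH/EGF arrays had 36 of the 51 members higher and 2 lower (Derl3 and Creb3l2), and 13 did not pass. Of all genes 29.1% passed, 18.6% higher and 10.5% lower. The median was 0.44. This comparison shares its FSH/EGF arrays with the one against control, so that the 2 sets of calls are not independent. The largest differences were 3.0 for Creb3l1, −2.82 for Derl3, 1.45 for Ern1, 1.31 for Sec23b and 1.30 for Edem1. Kdelr3, which lay between, differed by 0.91 ± 0.13 (SE, limma adjusted p = 0.000165). By role, 4 of 6 sensors, 9 of 12 folding, 7 of 9 degradation, 5 of 7 translocation and 11 of 17 vesicle genes were higher. The 13 members that did not pass were Arcn1, Copa, Copb1, Eif2ak3, Pdia3, Pdia4, Pdia6, Sec13, Sec22b, Sec31a, Sec61b, Sec62 and Sel1l. Among those that passed, Canx (0.29), Sdf2l1 (0.31) and Cope (0.32) were the least stable, losing their calls in 12, 10 and 6 of the 24 alternatives. Sec22b was nearly level between the treated groups, at 0.02 ± 0.16 (SE, limma adjusted p = 0.958).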

How the data were processed

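Expression was measured on 12 arrays, 4 per group, and arrays give no read depth, so their number limits the precision. The deposited values were log2 signals, 2.916 to 14.29, which the authors had normalized: the submitters' processing notes list GCOS, RMA and Partek, with no versions or roles. The build and annotation version were not given in the sources used here. Of 35399 rows, the platform annotation gave 1 symbol for 21789, several for 1621 and did not list 11989. Each of 19938 genes took its probe set with the highest mean, and 49 members matched by symbol and Ero1l and Ero1lb by Entrez identifier.

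Groups were compared with limma 3.58.1 (R 4.3.3), in a model of 3 group means fitted to the 12 arrays with empirical Bayes moderation. P-values were adjusted by Benjamini-Hochberg across the whole table, at a threshold of 0.05, and the fit was tested on simulated data. The members and lists were chosen with earlier results of these data known. Per-array values are given for up to 4 members per role with the largest differences past the threshold, and for Eif2ak3 and the 3 smallest p under GDF9. Those of Creb3l2 and the marker Acta2 were added after their values were seen. Other pathway genes are named up to 3 per role by size. Normalization, moderation, filters, probe set choice, array weights, the replicate block and left-out arrays were the alternatives.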

Additional observations from a re-analysis of the deposited data

Results flagged for a closer look

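In each group of 4 arrays, an array was marked where its gap to the nearest other array took up more of the group's range than Dixon's 95% limit allows. Of 153 such tests over the members, 10 passed, where chance gives about 1 in 20. Of these 10, 5 fell on control array 1, each time below the other 3 control arrays. Its signals were 10.64 for Canx (the others 11.05 to 11.08), 7.81 for Sec62 (8.23 to 8.31), 7.74 for Sec22b (8.39 to 8.41), 7.78 for Sec23a (8.33 to 8.39) and 9.62 for Sec31a (9.73 to 9.75). On GDF9 array 3, Syvn1 had 7.73 (8.07 to 8.13) and Derl3 had 9.35 (9.60 to 9.62), and on GDF9 array 4 Edem2 had 7.85 (8.09 to 8.14). FSH/EGF array 4 was low for Hyou1 at 10.28 (10.36 to 10.38) and for Ssr1 at 9.41 (9.66 to 9.71).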

How the results depend on the processing

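Over 24 alternatives, the members past the threshold in FSH/EGF minus control numbered 35 to 48 (45 as reported), in FSH/EGF minus GDF9 33 to 44 (38) and in GDF9 minus control 0 throughout. Against control, 20.2% of all rows were called where 35 members passed, 37% where 48 did and 29% as reported. Against GDF9 these shares were 18.9% or 19.7% at 33 members, 28.7% at 44 and 22.5% as reported. In FSH/EGF minus control 32 of the 45 passed in every alternative, and in FSH/EGF minus GDF9 31 of the 38. Leaving out 1 array gave 42 to 47 and 33 to 43 calls, with 23% to 30.5% and 18.9% to 26.2% of all rows called. The member medians were then 0.50 to 0.62, 0.39 to 0.51 and, for GDF9 minus control, 0.04 to 0.12. Renewed quantile normalization lowered the medians to 0.41 in FSH/EGF minus control and 0.34 in FSH/EGF minus GDF9, and left 36 and 34 calls. Larger rises over control shrank there as well but kept their calls, such as Atf6 at 0.62, Syvn1 at 0.69, Ssr1 at 0.73 and Sec23b at 1.37. P4hb hardly moved, at 0.48 beside 0.47. There the difference turned to −0.016 for Sec31a against control and, against GDF9, to −0.019 for Sec31a, −0.054 for Sel1l and −0.14 for Sec22b. Leaving out 1 array moved Sec22b against GDF9 from −0.076 (without FSH/EGF replicate 1) to 0.11, with −0.047 without GDF9 replicate 2. The cause was not tested. Of all calls over the table in FSH/EGF minus control, 57% were higher as deposited, 52.4% after renewed quantile normalization and 71.9% with equal array medians. Deviations of same-numbered arrays from their group means correlated by −0.142 to 0.184 between FSH/EGF and control. They correlated by −0.070 to 0.212 between FSH/EGF and GDF9, and by −0.389 to 0.221 between GDF9 and control. Differently numbered arrays were not set beside them, so these values cannot show whether the replicate numbers pair the arrays. With the replicate number as a block, 45 members passed against control, 43 of them shared (Pdia6 and Sec31a lost, Cope and Sdf2l1 gained), and 37 against GDF9 (Canx lost). The shares of all rows called were 27.1% and 21.3% there. Each mean rests on 4 arrays, and the smallest difference they could resolve was not tested. Against control Sec31a passed at 0.21, while Pdia4 at 0.24 and Cope at 0.25 did not.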
